A study of Homo sapiens with 18 samples.

Results

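YAP1, WWTR1 (the gene of TAZ), TEAD1, TEAD2, TEAD3, TEAD4, LATS1, LATS2 and VGLL4 are factors of the Hippo pathway, and their mRNA was followed in 3 lung cancer cell lines given CCS1477 or its solvent. The 9 genes were listed by name, and their gene rows were read from the expression table of each line. All 9 had a gene row among the 16424 of H460 and the 18140 of H2023, and 8 had one among the 16910 of ABC-1, where TEAD2 was not analysed. CCS1477 is a small molecule that binds the bromodomains of the acetyltransferases p300 and CBP. H460 is a line from a large cell lung carcinoma, H2023 is labelled a squamous cell lung carcinoma and ABC-1 a lung adenocarcinoma. The series text calls H460 and H2023 NRF2-activated, NRF2 being a transcription factor of the antioxidant response, and calls ABC-1 wildtype. For each line there were 3 libraries from cells held for 24 h in DMSO and 3 from cells held for 24 h with CCS1477, 18 libraries in all. The dose is 5 µM by the table headings, while the series text has 5 mM. Nothing in the labels says that replicates came from separate cultures, so the p-values cover only the variation among the libraries and that variation may be technical.

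In the Hippo pathway the kinases MST1 and MST2 activate LATS1 and LATS2, and the LATS kinases phosphorylate YAP and TAZ, which are then held in the cytoplasm or degraded. Unphosphorylated YAP and TAZ enter the nucleus and, having no DNA-binding domain of their own, act as coactivators on the TEAD factors. VGLL4 binds the TEAD factors in competition with YAP and lowers their activity, and LATS2 is itself a known target gene of YAP and TEAD, so that the pathway feeds back on itself.

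The H460 libraries held 26652270 to 33568236 reads, those of H2023 15352630 to 18261168 and those of ABC-1 14483988 to 17483295. Levels below are CPM, read counts scaled to the same total in each library, and a comparison between genes uses CPM per kilobase of exon. At 1 CPM the counting error alone was 17.3% to 26.3% over all libraries and 17.3% to 19.4% in those of H460. Counting error bears on TEAD3 in H460, the member with the lowest level, which had 83 to 135 reads per library. The first CCS1477 replicate of H460 stood apart, with a median absolute log2 difference of 0.124 and 0.140 from the other replicates of its group, against 0.0786 to 0.113 in the 16 other replicate pairs. Leaving it out changed no call among the 9 genes within H460. Of 4 epithelial markers, KRT8 and KRT18 were at 603 CPM or more in DMSO in every line, EPCAM was at 0.659, 36.3 and 479 CPM in H460, H2023 and ABC-1, and CDH1 was at 47.4 and 244 CPM in H2023 and ABC-1 and was not analysed in H460. All 4 epithelial markers had lower means with CCS1477 in H2023, where CDH1 was at 8.11 CPM and KRT8 at 2827, against 3225 for KRT8 in DMSO. All 4 had higher means with CCS1477 in ABC-1, where CDH1 was at 315 CPM and KRT8 at 4129, against 2895 for KRT8 in DMSO. The H460 means were mixed. There KRT8 was at 1202 CPM without and 1504 with CCS1477, KRT18 at 603 and 598, and EPCAM at 0.659 and 0.443. Of 5 squamous markers, TP63 alone had a row in H2023, labelled squamous, at 1.84 CPM in DMSO. In ABC-1, labelled adenocarcinoma, the squamous marker SOX2 was at 149 CPM in DMSO and 66.7 with CCS1477, and TP63 at 1.35 in DMSO. In H460 the squamous markers KRT5 and KRT6A were at 2.98 and 0.634 CPM in DMSO. Of 4 lung adenocarcinoma markers, NKX2-1 alone had a row in ABC-1, at 1.34 CPM in DMSO. NKX2-1 was at 0.236 CPM in H460 and NAPSA at 0.248 CPM in H2023. Of 8 markers of leukocytes, endothelium and fibroblasts, CD68 and COL1A1 were the ones with a row in every line. CD68 went from 26.6 to 15.3 CPM with CCS1477 in H2023 and COL1A1 from 7.53 to 23.0 CPM in ABC-1, and their part in the results was not tested.

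Of the 9 genes, 7 passed the test in H460, and all 7 fell. The test was limma on the deposited log2 values of each line, with an adjusted p under 0.05 over all genes tested, and it called 56.1% of all genes in H460, 27.9% as lower. In H2023, 8 of 9 passed, 6 lower and 2 higher, where 60.6% of all genes were called. In ABC-1, 7 of 8 passed, 4 lower and 3 higher, where 66.1% of all genes were called. With so many genes called in each line, a call alone sets no gene apart; the called members were 77.8%, 88.9% and 87.5% of those tested in H460, H2023 and ABC-1. The median log2 change of the members in H460, H2023 and ABC-1 was -0.23, -0.32 and -0.22, beside 0.00, -0.01 and 0.01 over all genes tested. The DMSO and CCS1477 replicates did not overlap for 6 of 9, 8 of 9 and 7 of 8 members in the same order, beside 65%, 66.3% and 71.8% of all genes tested. In cells grown in bulk, fewer cells that express a gene and less of its RNA per cell cannot be told apart.

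**Figure D1:**
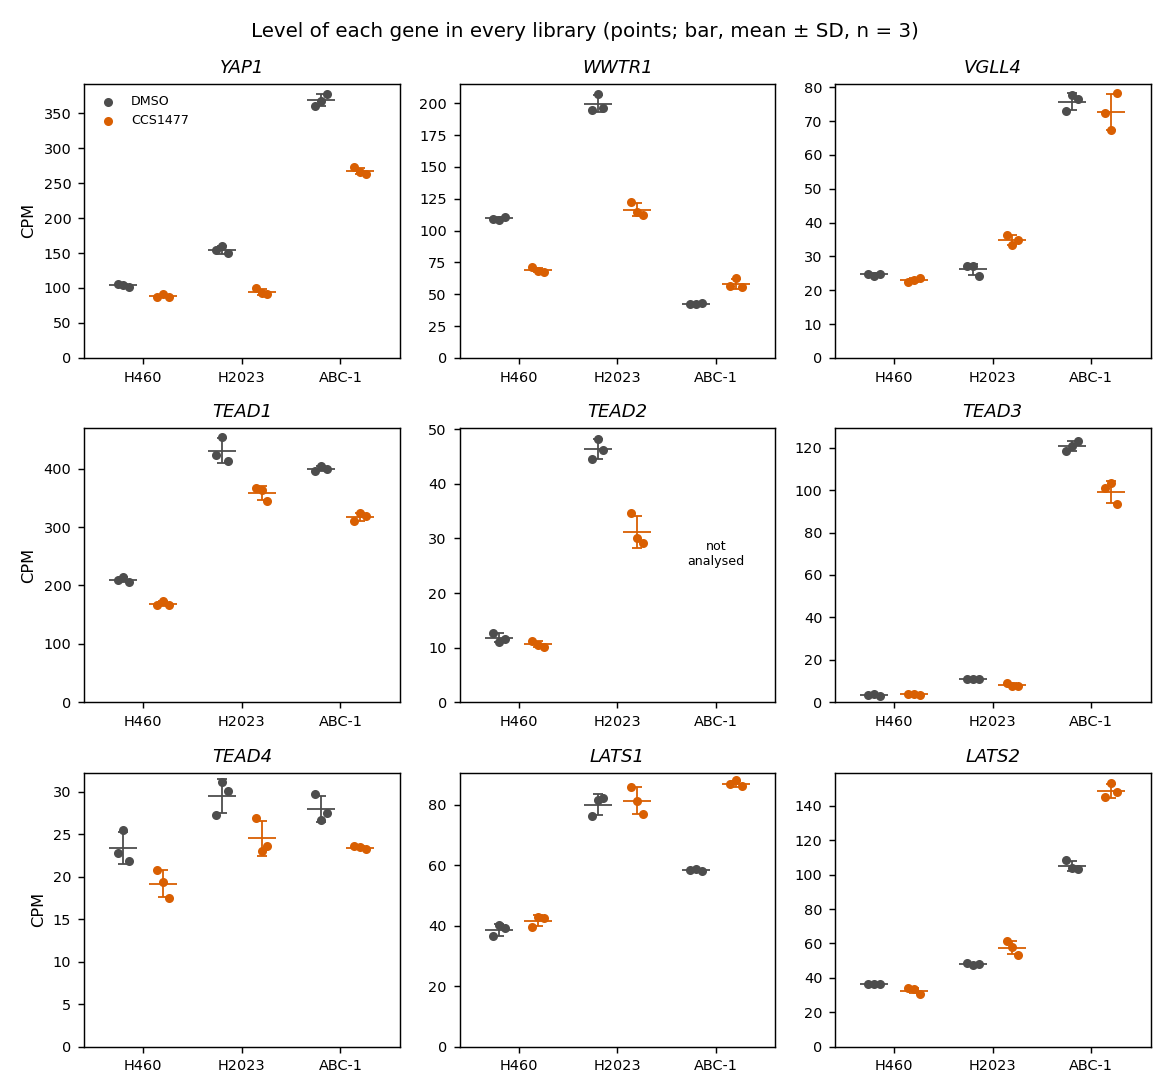
Level of each of the 9 genes in every library (vertical axis, CPM from 0; points, libraries; bars, mean ± SD, n = 3) by cell line, DMSO in grey and CCS1477 in orange. YAP1, TEAD1 and TEAD4 lay lower with CCS1477 in all 3 lines, while WWTR1 lay lower in H460 and H2023 and higher in ABC-1; TEAD2 was not analysed in ABC-1.

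YAP1, the gene of the coactivator YAP, lies at chr11:102110461-102233423 on the plus strand of GRCh38. The 250 bases before its RefSeq start, chr11:102110197-102110446 (GRCh38.p14, plus strand), are shown because YAP1 fell in every line and because this was the one window among those of 7 members that held the TEAD core motif, GGAATG on either strand, in capitals.
YAP1: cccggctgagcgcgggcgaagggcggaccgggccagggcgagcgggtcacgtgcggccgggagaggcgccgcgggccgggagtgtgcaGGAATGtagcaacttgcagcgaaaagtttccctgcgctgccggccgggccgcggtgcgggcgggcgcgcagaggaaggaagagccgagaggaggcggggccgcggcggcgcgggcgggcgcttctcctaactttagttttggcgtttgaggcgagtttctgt
The match begins 162 bases before the start. No window was found for TEAD1 and TEAD4, which also fell in every line, so the motif was not looked for there. Of 35116 RefSeq promoter windows of the same length, 11.89% hold the motif, and a match is a run of letters, not a measured binding site. The window has 72% G and C and 36 CpG, against medians of 58% and 11 over all windows.

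In H460, YAP1 had 105, 104 and 101 CPM in the DMSO libraries and 87.7, 90.7 and 87.0 with CCS1477. The groups did not overlap, and YAP1 fell by 0.30 ± 0.04 on the log2 scale, with an adjusted p of 2.91e-04. In H2023 the DMSO libraries had 154, 160.3 and 149 CPM and the CCS1477 libraries 99.4, 92.5 and 90.9, and fell by 0.76 ± 0.05 with an adjusted p of 1.60e-07. In ABC-1, where YAP1 was highest, it went from 361, 368 and 378 CPM to 272, 266 and 264, and fell by 0.52 ± 0.03 with an adjusted p of 1.61e-07. All DMSO libraries lay above all CCS1477 libraries in each line. The size of the fall differed between each pair of lines in a limma fit over the 18 libraries: it was smaller in H460 than in H2023 by 0.47 ± 0.05 (SE; adjusted p = 4.13e-06) and than in ABC-1 by 0.22 ± 0.05 (adjusted p = 0.00221). The change in H2023 minus that in ABC-1 was -0.24 ± 0.05 (adjusted p = 0.00140). These tests called 30.3% of all genes for H460 against H2023, 50.6% for H460 against ABC-1 and 44.8% for H2023 against ABC-1.

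WWTR1 encodes TAZ, the paralog of YAP, and lies at chr3:149517235-149736714 on the minus strand. RefSeq gives 2 start windows for it, and the part of the one with more G and C that lies outside annotated exons, chr3:149658102-149658275 (GRCh38.p14, minus strand), is shown beside that of YAP1 because the 2 paralogs moved in opposite directions in ABC-1.
WWTR1: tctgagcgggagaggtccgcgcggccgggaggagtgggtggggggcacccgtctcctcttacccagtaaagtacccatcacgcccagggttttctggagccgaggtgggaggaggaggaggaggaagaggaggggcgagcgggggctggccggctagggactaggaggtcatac
Neither WWTR1 window held the TEAD core, the AP-1 motif TGANTCA or the antioxidant response element TGACNNNGC, each looked for on both strands, so no base is in capitals. The AP-1 motif is in 6.573% and the antioxidant response element in 10.91% of all windows.

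In H460 the DMSO libraries had 109, 108 and 111 CPM of WWTR1 and the CCS1477 libraries 71.2, 68.4 and 67.8. WWTR1 fell by 0.74 ± 0.04 on the log2 scale, with an adjusted p of 3.28e-06. In H2023 WWTR1 went from 195, 207 and 196 CPM to 122, 115 and 112, and fell by 0.83 ± 0.04 with an adjusted p of 6.68e-08. In ABC-1 it was at 42.3, 42.3 and 42.9 CPM in DMSO and rose to 56.7, 62.5 and 55.5, by 0.39 ± 0.05 with an adjusted p of 4.56e-05. The groups did not overlap in any line, and the direction in ABC-1 was the reverse of that in the other lines. The change in H460 minus that in ABC-1 was -1.13 ± 0.06 (SE; adjusted p = 7.92e-11), and that in H2023 minus that in ABC-1 was -1.22 ± 0.06 (adjusted p = 4.09e-11). Between H460 and H2023 the difference was 0.09, with a 95% interval from -0.04 to 0.22 and an adjusted p of 0.281. Of the 11757 genes tested in every line, 1.63%, or 192 genes, were called lower in both H460 and H2023 and higher in ABC-1 as WWTR1 was.

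Within a library the share of each paralog can be read without any scaling between libraries. WWTR1 made up 44.2% ± 0.703 (SD, n = 3) of the summed CPM per kilobase of YAP1 and WWTR1 in untreated H460, 49.1% ± 0.442 in H2023 and 7.94% ± 0.122 in ABC-1. With CCS1477 its share in H460 was 36.9% ± 0.857, that in H2023 48.0% ± 0.0850 and that in ABC-1 14.0% ± 0.813. The shares with and without CCS1477 did not overlap in any line, and an exact permutation test of 3 libraries against 3 cannot give a p below 0.1. In H460 the sum of both was 29.5 CPM per kilobase without and 22.3 with CCS1477, in H2023 48.3 and 28.8, and in ABC-1 63.6 and 49.4. The sum was thus lower with CCS1477 also in ABC-1, where YAP1 was the larger term.

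**Figure D2:**
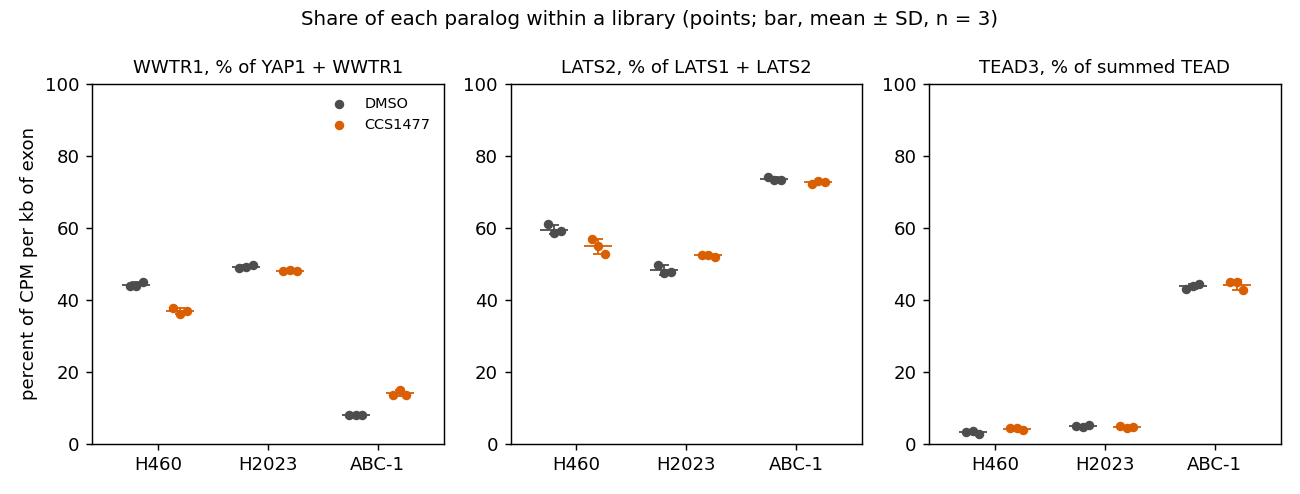
Share of one paralog within each library (vertical axis, percent of the summed CPM per kilobase of exon; points, libraries; bars, mean ± SD, n = 3), for WWTR1 beside YAP1, LATS2 beside LATS1 and TEAD3 among the TEAD genes. The WWTR1 share was 7.94% in untreated ABC-1 against 44.2% in H460, and the TEAD3 share was 43.7% in ABC-1, where TEAD2 is not in the sum, against 3.20% in H460.

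The TEAD genes encode the DNA-binding partners of YAP and TAZ. TEAD1 (chr11:12674591-12944483, plus strand) was the most abundant TEAD gene per kilobase in H460 and H2023. In H460 it went from 209, 214 and 206 CPM to 166, 173 and 167, and fell by 0.38 ± 0.04 (adjusted p = 7.46e-05). In H2023 it went from 423, 455 and 414 CPM to 367, 363 and 345, and fell by 0.32 ± 0.04 (adjusted p = 1.02e-04). In ABC-1 it went from 396, 404 and 399 CPM to 309.8, 324 and 319, and fell by 0.39 ± 0.03 (adjusted p = 1.38e-06). The groups did not overlap in any line. No difference between lines passed the test, and the 95% intervals of the difference ran from -0.18 to 0.05 for H460 minus H2023, from -0.11 to 0.12 for H460 minus ABC-1 and from -0.04 to 0.19 for H2023 minus ABC-1.

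TEAD4 (chr12:2959330-3040673, plus strand) fell in each line. It had 22.8, 25.5 and 21.9 CPM in the DMSO libraries of H460 and 20.8, 19.3 and 17.5 with CCS1477, and fell by 0.36 ± 0.08 (adjusted p = 0.00749). In H2023 it had 27.2, 31.2 and 30.1 CPM in DMSO and 26.9, 23.0 and 23.6 with CCS1477, and fell by 0.32 ± 0.08 (adjusted p = 0.00473). In ABC-1 it had 29.7, 26.6 and 27.5 CPM in DMSO and 23.6, 23.5 and 23.2 with CCS1477, and fell by 0.31 ± 0.06 (adjusted p = 8.76e-04). The groups did not overlap in any line, though in H2023 the lowest DMSO library and the highest CCS1477 library differed by little. The differences between lines were -0.04 for H460 minus H2023 (95% interval -0.27 to 0.19), -0.05 for H460 minus ABC-1 (-0.28 to 0.19) and -0.01 for H2023 minus ABC-1 (-0.24 to 0.23), with no adjusted p under 0.05. Each of these intervals is wider than the falls themselves.

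TEAD2 (chr19:49340595-49362457, minus strand) had 44.6, 48.3 and 46.2 CPM in the DMSO libraries of H2023 and 34.6, 30.0 and 29.1 with CCS1477, and fell by 0.62 ± 0.07 (adjusted p = 1.81e-05). In H460 it had 12.7, 11.1 and 11.6 CPM in DMSO and 11.2, 10.6 and 10.2 with CCS1477. These groups overlapped, and TEAD2 fell by 0.22 ± 0.08 with an adjusted p of 0.0468. The call ended when any one library of H460 except the first CCS1477 replicate was left out (adjusted p = 0.150, 0.0539 and 0.0888 without DMSO replicates 1, 2 and 3, and 0.112 and 0.117 without CCS1477 replicates 2 and 3) and with the totals of the libraries as the scaling (0.161). In a fit of the 12 libraries of H460 and H2023, added after the data were seen, the change in H460 minus that in H2023 was 0.41 ± 0.11 (SE; adjusted p = 0.0114), a test that called 30% of 12769 genes.

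TEAD3 (chr6:35473597-35497076, minus strand) differed most between the untreated lines of all the members. It had 119, 121 and 123 CPM in the DMSO libraries of ABC-1 and 101, 103 and 93.3 with CCS1477, and fell by 0.35 ± 0.04 (adjusted p = 3.54e-05). In H2023 it had 10.9, 10.8 and 11.2 CPM in DMSO and 9.25, 7.74 and 7.76 with CCS1477, and fell by 0.46 ± 0.10 (adjusted p = 0.00239). In H460 it had 3.56, 3.98 and 2.94 CPM in DMSO and 4.02, 4.10 and 3.32 with CCS1477, groups that overlapped, and the change of 0.06 ± 0.15 did not pass the test (95% interval -0.29 to 0.40). The change in H460 minus that in H2023 was 0.51 ± 0.14 in the fit over the 18 libraries (adjusted p = 0.0103). In the fit of the 12 libraries of these 2 lines it was 0.51 ± 0.18 (adjusted p = 0.0467), near the threshold. The change in H460 minus that in ABC-1 was 0.40 ± 0.14 (adjusted p = 0.0247), a call that ended without H460 DMSO replicate 3 (0.0743), H460 CCS1477 replicates 1 (0.0518) or 2 (0.0615), ABC-1 DMSO replicate 2 (0.0501) or ABC-1 CCS1477 replicate 3 (0.0637). Among the TEAD genes TEAD3 made up 43.7% ± 0.610 (SD, n = 3) of the summed CPM per kilobase in untreated ABC-1, which lacks TEAD2 in the sum, 4.87% ± 0.255 in H2023 and 3.20% ± 0.370 in H460. In H460 the summed TEAD level was 35.8 CPM per kilobase without and 29.7 with CCS1477, in H2023 74.0 and 58.9, and in ABC-1, without TEAD2, 90.9 and 73.8.

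LATS1 and LATS2 encode the kinases that phosphorylate YAP and TAZ. LATS2 (chr13:20973032-21061547, minus strand) fell in H460 and rose in the other lines. The 250 bases before its RefSeq start, chr13:21061587-21061836 (GRCh38.p14, minus strand), are shown because of that split and because, among the windows of 7 members, only this one held the antioxidant response element, in capitals on the opposite strand (GCNNNGTCA), beginning 12 bases before the start.
LATS2: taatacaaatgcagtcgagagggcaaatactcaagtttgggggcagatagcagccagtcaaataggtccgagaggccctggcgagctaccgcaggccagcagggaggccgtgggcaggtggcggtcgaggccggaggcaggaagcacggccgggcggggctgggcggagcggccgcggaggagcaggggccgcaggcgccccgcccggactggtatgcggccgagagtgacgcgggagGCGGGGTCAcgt
The TEAD core was not found in this window. In H460, LATS2 had 36.7, 36.4 and 36.5 CPM in DMSO and 33.9, 33.5 and 30.7 with CCS1477, and fell by 0.23 ± 0.05 (adjusted p = 0.00541). In H2023 it had 48.7, 47.4 and 48.2 CPM in DMSO and 61.2, 58.0 and 53.5 with CCS1477, a rise of 0.20 ± 0.05 (adjusted p = 0.00626). In ABC-1 it had 108, 104 and 103 CPM in DMSO and 145, 153 and 148 with CCS1477, a rise of 0.44 ± 0.04 (adjusted p = 1.21e-06). The groups did not overlap in any line, and each line differed from each other line. The change in H460 minus that in H2023 was -0.44 ± 0.06 (SE; adjusted p = 4.94e-05), in H460 minus ABC-1 -0.67 ± 0.06 (adjusted p = 1.08e-07) and in H2023 minus ABC-1 -0.23 ± 0.06 (adjusted p = 0.00667).

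LATS1 (chr6:149658153-149718256, minus strand) rose in ABC-1 and did not pass the test elsewhere. One of its RefSeq windows, not shown, was the only one among the 7 members to hold the AP-1 motif. In ABC-1 it had 58.6, 58.7 and 58.0 CPM in DMSO and 86.9, 88.1 and 86.1 with CCS1477, a rise of 0.51 ± 0.04 (adjusted p = 5.74e-07). In H460 it had 36.5, 40.1 and 39.3 CPM in DMSO and 39.7, 42.8 and 42.6 with CCS1477, and in H2023 76.2, 81.6 and 82.4 CPM in DMSO and 85.8, 81.3 and 76.9 with CCS1477. The groups overlapped in both of these lines, and the changes were 0.04 (95% interval -0.10 to 0.17) and -0.03 (-0.14 to 0.08). The change in ABC-1 was larger than that in H460, with a difference of -0.48 ± 0.07 for H460 minus ABC-1 (adjusted p = 2.16e-05), and larger than that in H2023, with -0.54 ± 0.07 for H2023 minus ABC-1 (adjusted p = 6.02e-06). The summed level of both kinases was 25.6 CPM per kilobase in untreated ABC-1 and 36.7 with CCS1477, against 11.0 and 10.7 in H460 and 17.9 and 19.7 in H2023. LATS2 made up 73.6% ± 0.461 (SD, n = 3) of that sum in untreated ABC-1, 59.5% ± 1.31 in H460 and 48.2% ± 1.33 in H2023.

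VGLL4 (chr3:11556070-11771350, minus strand), the TEAD cofactor that competes with YAP, rose in H2023. There it had 27.0, 27.3 and 24.2 CPM in DMSO and 36.4, 33.5 and 34.9 with CCS1477, a rise of 0.36 ± 0.07 (adjusted p = 6.21e-04), with no overlap of the groups. In H460 it had 24.9, 24.2 and 24.9 CPM in DMSO and 22.4, 23.0 and 23.5 with CCS1477, and fell by 0.17 ± 0.05 with an adjusted p of 0.0206 and no overlap of the groups. That call ended without H460 DMSO replicate 1 (0.0591) or 3 (0.0678) or CCS1477 replicate 2 (0.0575), though the change stayed at -0.17 in each case. It also ended with library totals as the scaling (change -0.10, adjusted p = 0.122) and when the transcript rows were summed into the gene (change -0.11, adjusted p = 0.0857). Only under this scaling and this summing was the change over 1.5 times smaller than the one reported. In ABC-1 it had 73.0, 77.8 and 76.4 CPM in DMSO and 72.3, 67.5 and 78.3 with CCS1477, groups that overlapped, and its change of -0.12 ± 0.06 (adjusted p = 0.0993) passed the test only without CCS1477 replicate 3 (-0.18, adjusted p = 0.0237). The change in H460 minus that in H2023 was -0.54 ± 0.09 (adjusted p = 1.22e-04) and that in H2023 minus that in ABC-1 was 0.48 ± 0.09 (adjusted p = 1.77e-04).

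**Figure D3:**
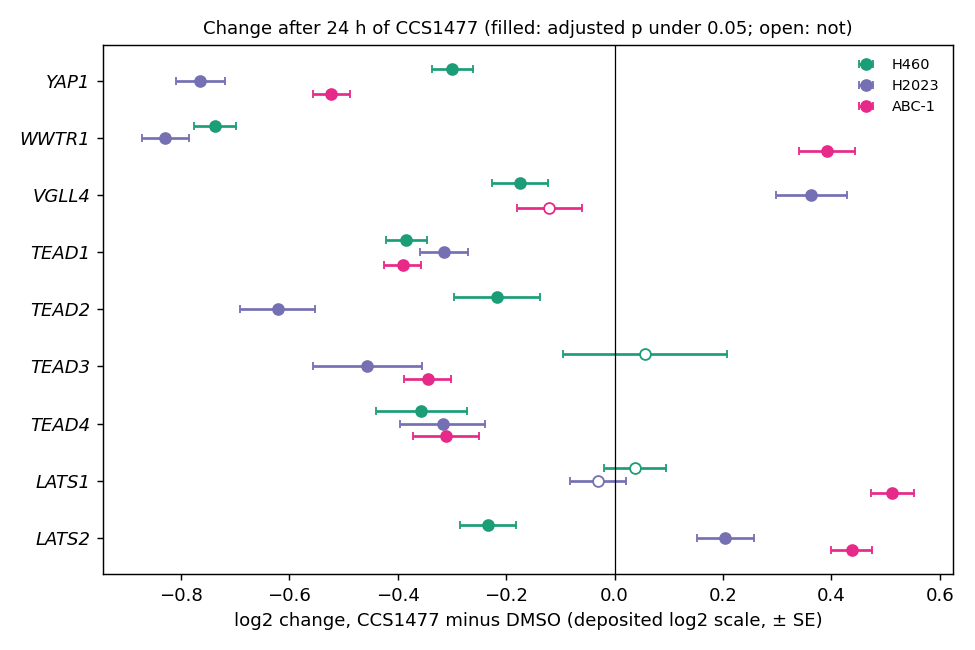
Change of each gene with CCS1477 (horizontal axis, log2 units, CCS1477 minus DMSO; points with bars, limma estimate ± SE from 3 against 3 libraries) in H460 (green), H2023 (purple) and ABC-1 (pink), with filled points for an adjusted p under 0.05. The TEAD1 and TEAD4 points of the 3 lines lie together between -0.39 and -0.31, while those of WWTR1 run from -0.83 in H2023 to 0.39 in ABC-1.

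Across the lines, 3 of the 8 genes with a row in each fell in every line (YAP1, TEAD1 and TEAD4), beside 12.7% of all genes tested in every line, and none rose in every line, beside 14.7%. A further 3, WWTR1, LATS2 and VGLL4, rose in one line and fell in another, and the share of all genes that did so was not counted. Of 26 pairs of a gene and a line, 17 fell, 5 rose and 4 did not pass the test. Pairs of one gene are not separate units. Over all genes tested, 27.9%, 31.9% and 32.6% were called lower in H460, H2023 and ABC-1. Called higher were 28.2%, 28.6% and 33.5%. The difference of response between lines passed for 4 of 8 members between H460 and H2023, 5 of 8 between H460 and ABC-1 and 5 of 8 between H2023 and ABC-1, and the 3 tests share libraries. Of all genes, 30.3%, 50.6% and 44.8% passed these tests.

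In the untreated cells the order of the members per kilobase of exon differed between lines. In H460 it ran from TEAD1 (20.4 ± 0.410 CPM per kilobase, SD, n = 3) through YAP1 (16.4), WWTR1 (13.0), TEAD4 (10.3), LATS2 (6.55), LATS1 (4.47), TEAD2 (3.96) and VGLL4 (3.41) to TEAD3 (1.15), with only the replicates of LATS1 and TEAD2 overlapping as neighbours. In H2023 it ran from TEAD1 (41.9 ± 2.10) through YAP1 (24.5), WWTR1 (23.7), TEAD2 (15.6), TEAD4 (13.0), LATS1 (9.26), LATS2 (8.62) and VGLL4 (3.62) to TEAD3 (3.60), with YAP1 and WWTR1 overlapping, and VGLL4 and TEAD3. In ABC-1 it ran from YAP1 (58.6 ± 1.37) through TEAD3 (39.7), TEAD1 (38.9), LATS2 (18.9), TEAD4 (12.3), VGLL4 (10.5) and LATS1 (6.76) to WWTR1 (5.05), with TEAD3 and TEAD1 overlapping. Between the highest and the lowest line the CPM differed 34.6-fold for TEAD3, 4.70-fold for WWTR1, 3.93-fold for TEAD2 over 2 lines, 3.56-fold for YAP1 and 1.26-fold for TEAD4. These levels were set side by side across tables that were scaled separately and were not tested.

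The tables also held rows named for single transcripts, 46 of them for the members over the 3 lines, of which 24 passed the filter and 3 passed the test in a separate limma fit of such rows, added after the data were seen. Of all transcript rows that fit called 4.05%, 3.1% and 6.98% in H460, H2023 and ABC-1. WWTR1-205, annotated as subject to nonsense-mediated decay, had 150, 151 and 142 reads in the DMSO libraries of H460 and 60, 71 and 104 with CCS1477, and fell by 1.20 ± 0.23 on the log2 scale (adjusted p = 0.0483). In H2023 it had 133, 129 and 89 reads in DMSO and 29, 49 and 48 with CCS1477, and fell by 1.37 ± 0.22 (adjusted p = 0.0348). In ABC-1 it had 32, 18 and 16 reads in DMSO and 13, 0 and 28 with CCS1477 and did not pass the test (adjusted p = 0.445). LATS1-206 in ABC-1 had 22, 17 and 14 reads in DMSO and 43, 46 and 48 with CCS1477, a rise of 1.04 ± 0.21 (adjusted p = 0.0388). The called rows, WWTR1-205 in H460 and H2023 and LATS1-206 in ABC-1, followed the direction of their gene rows. In ABC-1 the uncalled change of WWTR1-205 was -1.06 ± 0.77, while the gene row of WWTR1 rose by 0.39. VGLL4-206 had 11, 9 and 19 reads in DMSO and 59, 58 and 33 with CCS1477 in H460, where the gene row of VGLL4 was lower with CCS1477, and 9, 11 and 17 in DMSO and 38, 36 and 31 with CCS1477 in H2023. Its groups did not overlap in either line, but the changes of 1.42 ± 0.40 and 1.30 ± 0.31 did not pass the test (adjusted p = 0.107 and 0.0850).

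Exons of YAP1, WWTR1, LATS1, TEAD2 and VGLL4 overlap those of genes on the opposite strand, among them WWTR1-AS1, CD37 and ATG7. The libraries were prepared with a directional kit, but whether the counting used strand is not given in the sources used here, so reads of such partners cannot be told apart from those of the members in the shared exons. The genes whose levels over the 18 libraries were most like YAP1 were GALNT7 (Pearson r = 0.993), ZBTB4 (0.993) and TSPAN15 (0.990), and those most like WWTR1 were IL1R1 (0.990), AFAP1 (0.990) and ABL1 (0.981), among 11757 genes. These correlations are descriptions over libraries that fall into 3 lines.

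The rest of the pathway was read from 4 lists. Of 19 Hippo core kinases and scaffolds tested, H460 had 7 that rose and 4 that fell, H2023 5 and 5, and ABC-1 9 and 5, with median log2 changes of 0.13, -0.03 and 0.08. The called share of this list was 57.9%, 52.6% and 73.7% in H460, H2023 and ABC-1, close to the 56.1%, 60.6% and 66.1% of all genes. By direction, the test called 28.2% of all genes higher and 27.9% lower in H460, 28.6% and 31.9% in H2023, and 33.5% and 32.6% in ABC-1, shares against which the counts of the lists below can be read. STK3, which encodes the kinase MST2 upstream of LATS, went from 20.9 ± 0.671 CPM (SD, n = 3) to 29.3 ± 0.901 in H460 and rose in every line (by 0.41, 0.35 and 0.28 in H460, H2023 and ABC-1). STK4, the gene of MST1, fell by 0.23 ± 0.05 in H460 (adjusted p = 0.00602). It did not pass the test in H2023 (adjusted p = 0.0502) or ABC-1 (0.402). WWC1, the gene of the scaffold KIBRA, fell by 1.17 ± 0.08 in H2023 (56.8 to 26.0 CPM, adjusted p = 4.18e-07). It also fell in ABC-1, by 0.60 ± 0.05 (adjusted p = 1.39e-06). NF2, which encodes the scaffold merlin, rose by 0.55 ± 0.03 in ABC-1 (195 to 296 CPM, adjusted p = 7.58e-08), where LATS1 and LATS2 also rose.

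The next list held genes whose products bind or inhibit YAP, TAZ, the TEAD factors or, as with AJUBA, LATS. H460 had 6 that rose and 4 that fell of 15 tested, H2023 5 and 5 of 16, and ABC-1 8 and 8 of 17. In the same order the medians were 0.09, 0.00 and 0.10 and the called shares 66.7%, 62.5% and 94.1%. The roles of these genes differ, so the counts and medians give no direction of YAP activity. With library totals as the scaling, 3 rather than 5 of them fell in H2023. AJUBA, whose LIM protein binds LATS, fell by 1.16 ± 0.07 in H460 (41.1 to 19.3 CPM, adjusted p = 5.23e-06). It also fell in H2023, by 0.53 ± 0.05, and in ABC-1, by 0.56 ± 0.08. VGLL3, a TEAD cofactor of the same family as VGLL4, fell by 1.43 ± 0.05 in H2023 (251.8 to 96.4 CPM, adjusted p = 3.05e-09), where VGLL4 rose. VGLL3 also fell in ABC-1, by 0.77 ± 0.04. VGLL1, another TEAD cofactor of that family, fell by 1.66 ± 0.04 in ABC-1 (184 to 60.6 CPM, adjusted p = 1.12e-10). AMOT, which encodes the YAP-binding protein angiomotin, fell from 322 to 132 CPM in ABC-1. It went from 0.952 to 4.11 CPM in H460 and from 0.989 to 4.54 CPM in H2023, and was called higher in both. There its DMSO means lay below the 1 CPM of the filter, which its CCS1477 libraries alone met. With at least 1 CPM required in every library, 5 rather than 6 genes of this list rose in H460 and 4 rather than 5 in H2023.

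Of the 9 genes of STRIPAK, a phosphatase complex that holds the MST kinases inactive, H460 had 3 that rose and 2 that fell, H2023 4 and 0, and ABC-1 5 and 0, with medians of 0.03, 0.03 and 0.15 and a called share of 55.6%, 44.4% and 55.6%. With library totals as the scaling 8 rather than 5 rose in ABC-1. Of known target genes of YAP and TEAD, H460 had 3 that rose and 10 that fell of 19 tested, H2023 4 and 13 of 19, and ABC-1 7 and 7 of 16. Their median log2 changes were -0.28, -0.48 and -0.06, and 68.4%, 89.5% and 87.5% were called. Of these targets 4 fell in every line (MYOF, FJX1, F3 and ASAP1) and 2 rose in every line (CCN2 and ANKRD1). The targets with the smallest p in H460 were TGFB2, RBMS3 and FOXF2, which fell by 2.69, 1.93 and 1.09 there. MYOF went from 583 to 326 CPM in H2023 and CCN2 from 12.8 to 60.2. CCN2, ANKRD1 and CCN1 had the smallest p in ABC-1, where 7 targets rose and 7 fell. In that line they went from 48.3 to 483, from 37.7 to 386 and from 69.3 to 370 CPM.

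**Figure D4:**
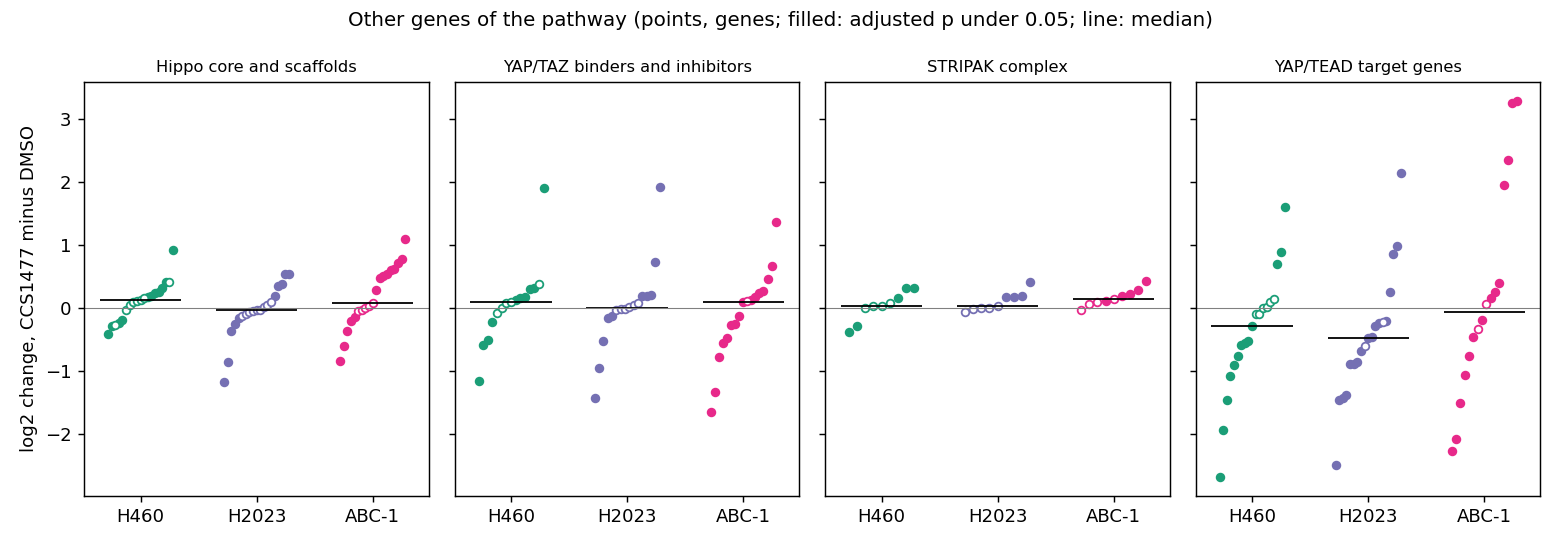
Change with CCS1477 of the other pathway genes by list and line (vertical axis, log2 units, CCS1477 minus DMSO; points, genes, filled for an adjusted p under 0.05; horizontal line, median of the list). The medians of the core and scaffold genes lie between -0.03 and 0.13, and that of the target genes is -0.48 in H2023.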

How the data were processed

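RNA of 18 libraries was sequenced as paired-end reads from directional libraries, per the labels' protocols. The authors deposited one table per cell line with log2 values, and the submitters' processing notes name GRCh38. Which aligner and counter were used, and whether reads were counted by strand, is not given in the sources used here. The deposited log2 values matched log2 of reads divided by a scaling factor plus 4: every value up to 1000 reads came out within 0.1 of a whole read.

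A gene row was tested where 3 or more of the 6 libraries of its line had 1 CPM or more (13516, 14572 and 13543 in H460, H2023 and ABC-1) with limma 3.58.1 (R 4.3.3, trended prior) on the deposited log2 values, CCS1477 against DMSO, with Benjamini-Hochberg adjustment over all genes tested. Differences between lines came from one fit of the 18 libraries over 11757 genes. The log2 scale includes the constant 4 and so understates changes of low genes. CPM uses all reads recovered in a library, of which 9.19% to 10.7% were on transcript rows. A different scaling of CPM and of the log2 values leaves small differences in direction possible, as for LATS1 in H2023. Sizes differ too, so the CPM printed do not give the log2 changes exactly. For YAP1 in H460 the log2 change was -0.23 with library totals, the scaling of CPM, and -0.30 on the deposited values. The scripts were tested on simulated data. Gene positions, exon lengths and overlaps are from GENCODE 29, symbols from a gene name table, and promoter windows from RefSeq (GRCh38.p14), which matched 7 of 9 members.

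All 9 members were named in every line, of each other list at most 3 genes per line with the smallest p, and for YAP1 and WWTR1 the 3 genes with the highest Pearson correlation of log2(CPM + 1). The members and lists were chosen with earlier results of these data known. Some genes of the other lists were named in a line beyond that rule, after their values were seen. These were STK4 in every line, STK3, WWC1, AJUBA and VGLL3 in ABC-1, AMOT in H2023 and the target genes that moved one way in every line. Alternatives were 3 other scalings, limma-voom on the recovered reads, 2 filters, 3 other constants, the replicate number as a block, each library left out, transcript rows added to their genes and one fit over all libraries.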

Additional observations from a re-analysis of the deposited data

Results flagged for a closer look

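In limma tests of the difference of the log2 changes over the 18 libraries, the response to CCS1477 of 6 of 8 genes differed between at least 1 pair of lines, beside 64.9% of all genes; the count is close to that share. TEAD2, not analysed in ABC-1, was tested in the 12 libraries of H460 and H2023 only. Between H460 and H2023 the difference (H460 minus H2023) was 0.47 for YAP1, 0.51 for TEAD3, -0.44 for LATS2, -0.54 for VGLL4 and, in the fit of those 12 libraries, 0.41 for TEAD2. Between H460 and ABC-1 it was 0.22 for YAP1, -1.13 for WWTR1, 0.40 for TEAD3, -0.48 for LATS1 and -0.67 for LATS2. Between H2023 and ABC-1 it was -0.24 for YAP1, -1.22 for WWTR1, -0.54 for LATS1, -0.23 for LATS2 and 0.48 for VGLL4. The lines differ in more than one respect, so these differences cannot be set against any single property of a line.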

How the results depend on the processing

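Of 1042 values of the members under alternatives, 996 kept their direction and their side of the threshold, 17 lost a call, 1 gained one and 28 changed sign, each of the last among changes that had not passed the test. All 180 alternative counts stayed within 1.5 times the reported ones: 5 to 7 members were called in H460, 7 to 8 in H2023 and 7 to 8 in ABC-1, and 4 to 5, 4 to 5 and 5 in the differences between lines. Signs changed with transcript rows summed into genes for LATS1 in H460 (-0.0321) and for TEAD4 in H460 minus H2023 (0.0256), with library totals for LATS1 in H2023 (0.0218), with relative log expression (0.0168), the trimmed mean of M values (0.0225) and limma-voom (0.0107) for TEAD4 in H2023 minus ABC-1, and with limma-voom for TEAD1 in H460 minus ABC-1 (-0.0109); the cause was not tested. Leaving out one library, the change ran from -0.0578 to 0.155 for TEAD3 and from -0.0058 to 0.0734 for LATS1 in H460, and from -0.0714 to 0.00682 for LATS1 in H2023. The differences ran from -0.0957 to 0.0267 for TEAD4 in H460 minus H2023, from -0.103 to 0.0198 in H460 minus ABC-1 and from -0.0713 to 0.0401 in H2023 minus ABC-1, from -0.0171 to 0.0244 for TEAD1 in H460 minus ABC-1 and from -0.113 to 0.0019 for VGLL4 in H460 minus ABC-1. With library totals as the scaling, the median log2 change of all genes tested was 0.07, 0.04 and 0.07 in H460, H2023 and ABC-1. On the deposited values it was 0.00, -0.01 and 0.01.

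Same-numbered libraries had small positive correlations of their deviations in H460 (0.01 to 0.10) and H2023 (0.03 to 0.04). In ABC-1 the correlations were negative (-0.10 to -0.04). Each library correlated best with its own number in H2023 alone. These values do not settle whether the numbers pair the libraries, and the main tests did not pair them. With the replicate number as a block, 6, 8 and 7 members were called in H460, H2023 and ABC-1 and 7356, 8806 and 8768 genes, and TEAD2 in H460 had an adjusted p of 0.0530. Depth limits mainly TEAD3 in H460 among the members, the transcript rows, and genes of the other lists near 1 CPM, such as AMOT in H460 and H2023.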
